A study of Arabidopsis thaliana with 12 samples.

Results

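Arabidopsis thaliana roots treated with cellobiose for 3 h were compared with roots that received no elicitor, on 3 arrays of each group out of 12 in the series. The arrays were chosen by their labels, which name the treatment and biological replicates 1 to 3. Both groups were roots of 7-day-old seedlings of the ecotype Col-0. The remaining arrays, used here where a difference from cellobiose is tested, hold 3 replicates each of roots treated with chitin oligomers and with oligogalacturonides (OGs) for the same time. Seedlings stood on a nylon mesh that let roots through and kept shoots apart, so each sample pools whole roots of many seedlings, all cell types together. The labels and design text give neither a dose nor the number of seedlings in a sample. Levels are log2 intensities of probe sets on Affymetrix ATH1 arrays, 22746 probe sets in all after the manufacturer's control probe sets were left out, and 13355 genes have a probe set of their own in the annotation used.

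Cellobiose is the disaccharide unit of cellulose. It is set free when cellulose is cut, and plant cells can sense it as a fragment of their own damaged wall, as they sense OGs from pectin, while chitin fragments announce a fungus. Roots guard their inner tissues with lignin and suberin. Suberin is a polyester of long fatty acids, glycerol and phenolics laid down in the wall of the endodermis: cytochrome P450 enzymes hydroxylate the fatty acids, acyltransferases join them, transporters and lipid transfer proteins carry the building blocks out of the cell, and GDSL lipase-like enzymes act on the polymer outside. Lignin is polymerised in the wall by laccases and class III peroxidases.

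Arrays of the same group correlated at 0.997 for cellobiose and at 0.992 to 0.994 for the control across probe sets, and arrays of the 2 groups correlated at 0.989 to 0.992. The mean of the 27 spike-in probe sets, which read transcripts added to the sample, was 5.66 to 5.76 on the cellobiose arrays and 5.85 to 6.01 on the control arrays. Of all 64 manufacturer's control probe sets, fitted apart, limma called 0. At an unadjusted limma p under 0.05 there were 15, and all 15 were lower after cellobiose. Of the 22746 other probe sets 3821 were under that p, and of the 13355 genes 2044. The 3′ minus 5′ difference of the GAPDH control probe sets, a measure of RNA integrity, was 0.136 to 0.246 after cellobiose and 0.267 to 0.411 in the control, and that of actin overlapped between the groups. The root label could be checked on 3 of 15 root marker genes, PYK10, EXPA7 and EXPA18, since the others had no probe set of their own in the annotation and were not analysed here. PYK10, a root beta-glucosidase, was at 13.65 to 13.86 after cellobiose and at 13.87 to 13.95 in the control. The defining markers of the endodermis and of suberised cells were not analysed here for the same reason. OGs replicate 3 stood apart from the other arrays in the GAPDH difference, at 0.844.

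With all arrays in the fit more genes rose than fell after cellobiose, and the largest increases were larger than the largest decreases. Among the 20 largest increases, which spanned log2 changes of 1.55 to 3.95, were genes for chitinases, peroxidases, a laccase and lipid transfer proteins, and the 15 largest decreases, from -1.70 to -0.85, held genes of chloroplasts and transport. Of the 22746 probe sets, 351 were called higher (1.54 percent) and 165 lower (0.725 percent) at an adjusted p under 0.05 (limma with Benjamini-Hochberg adjustment over all probe sets). Among the 13355 genes, 182 rose (1.36 percent) and 77 fell (0.577 percent), and the median change of all genes was 0.001 on the log2 scale. A change of 2-fold or more was reached by 53 of the genes that rose and 8 of those that fell. Over all probe sets 100 rose and 26 fell by that much. Centring the arrays on their medians gave 292 probe sets up and 237 down, and fitting the cellobiose and control arrays alone gave 349 up and 365 down, which turned the balance. As these are bulk roots, fewer cells of a type and less RNA per cell cannot be told apart. The number of called probe sets rested on single arrays: it was 516 (2.27 percent) with all arrays, and leaving out cellobiose replicate 1, 2 or 3 left 223, 247 and 138, while 234 were called when control replicate 2 was left out. Among the genes named below, 18 of the 20 largest increases kept the call whichever of the 6 arrays was left out, against 2 of the 15 largest decreases.

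**Figure D1:**
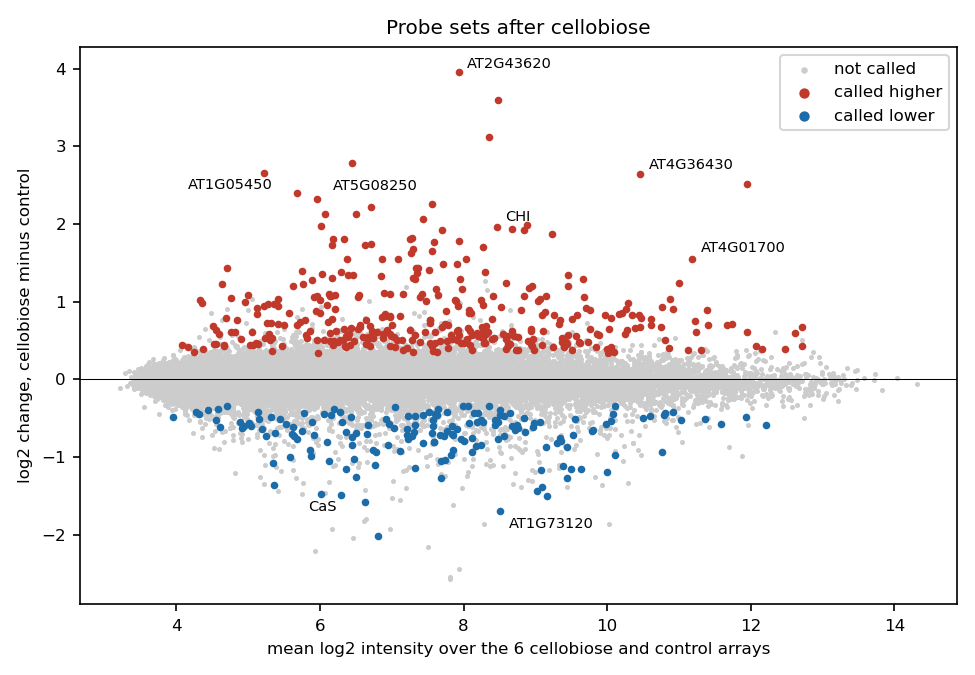
Each point is a probe set, with its mean log2 intensity over the 6 cellobiose and control arrays on the x axis and the fitted log2 change, cellobiose minus control, on the y axis. Red points were called higher (351) and blue points lower (165); AT2G43620 lies highest at 3.95, and the labelled decrease AT1G73120 stands at -1.70.

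Several genes tied to suberin rose after cellobiose. Of the 9 measured members of a list of 34, 5 rose, 4 did not pass the test and 0 fell, with a median log2 change of 0.78, where 1.36 percent of all genes rose and the median was 0.001. The list was written with earlier results of these data known, so its count describes these genes and is no independent evidence. In 7 of the 9 the groups did not overlap, with all cellobiose arrays above the control arrays; groups were separate, in either direction, in 21.7 percent of all genes. The mean of the 9 genes was 8.34, 8.45 and 8.40 on the cellobiose arrays, against 7.18, 7.41 and 7.18 on the control arrays. Calls among them numbered 4 without cellobiose replicate 3 and 7 without cellobiose replicate 2, and 5 without any other single array.

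In the hydroxylation step the measured gene was AT5G08250, a cytochrome P450 of a family that hydroxylates fatty acid chains. It read 7.73, 7.95 and 7.76 on the cellobiose arrays, against 5.4, 5.74 and 5.65 on the control arrays. Its lowest cellobiose value was thus well above its highest control value, and the fitted rise was 2.22 ± 0.19 (SE, log2), 4.65-fold (adjusted p = 0.000201). FACT, which joins hydroxycinnamic acids to fatty alcohols, is the measured acyltransferase. It read 7.72, 7.73 and 8.02 after cellobiose, against 7.20, 7.16 and 7.43 in the control, and this difference of 0.56 ± 0.17 did not pass the test (adjusted p = 0.124).

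Both measured genes of export rose. AT1G05450 encodes a lipid transfer protein. Its values were 6.55, 7.15 and 6.91 after cellobiose, against 4.41, 4.61 and 4.40 in the control, where it was too dim for a level; raising the control to log2 5 gives a rise of at least 3.66-fold (adjusted p = 6.36e-05). AT2G48130, also a lipid transfer protein gene, was already bright in control roots. It read 10.88, 10.94 and 10.76 after cellobiose, against 10.15, 10.16 and 9.92 in the control. The groups did not overlap and the rise was 1.72-fold (0.78 ± 0.12, adjusted p = 0.00787). Without cellobiose replicate 3 the adjusted p of AT2G48130 was 0.0523.

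The GDSL lipase-like genes split. AT3G50400 read 8.41, 8.64 and 8.33 after cellobiose and 6.20, 6.61 and 6.39 in the control, a 4.18-fold rise (2.06 ± 0.13, adjusted p = 6.36e-05). AT1G74460 read 10.33, 10.38 and 10.24 after cellobiose and 9.03, 9.14 and 8.89 in the control, a 2.45-fold rise (1.3 ± 0.12, adjusted p = 0.000238). In both genes the control arrays lay together, more than 1 log2 unit under the cellobiose arrays. The other listed members did not pass the test: AT2G23540 stood at 0.61 (adjusted p = 0.109), AT5G37690 at 0.35 (adjusted p = 0.259) and AT2G19050 at -0.03 (adjusted p = 0.933). AT4G26790, a GDSL lipase-like gene outside the list that was among the 20 largest increases, read 8.15, 8.34 and 8.10 after cellobiose and 6.2, 6.4 and 6.52 in the control, a rise of 3.54-fold (adjusted p = 0.000128).

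**Figure D2:**
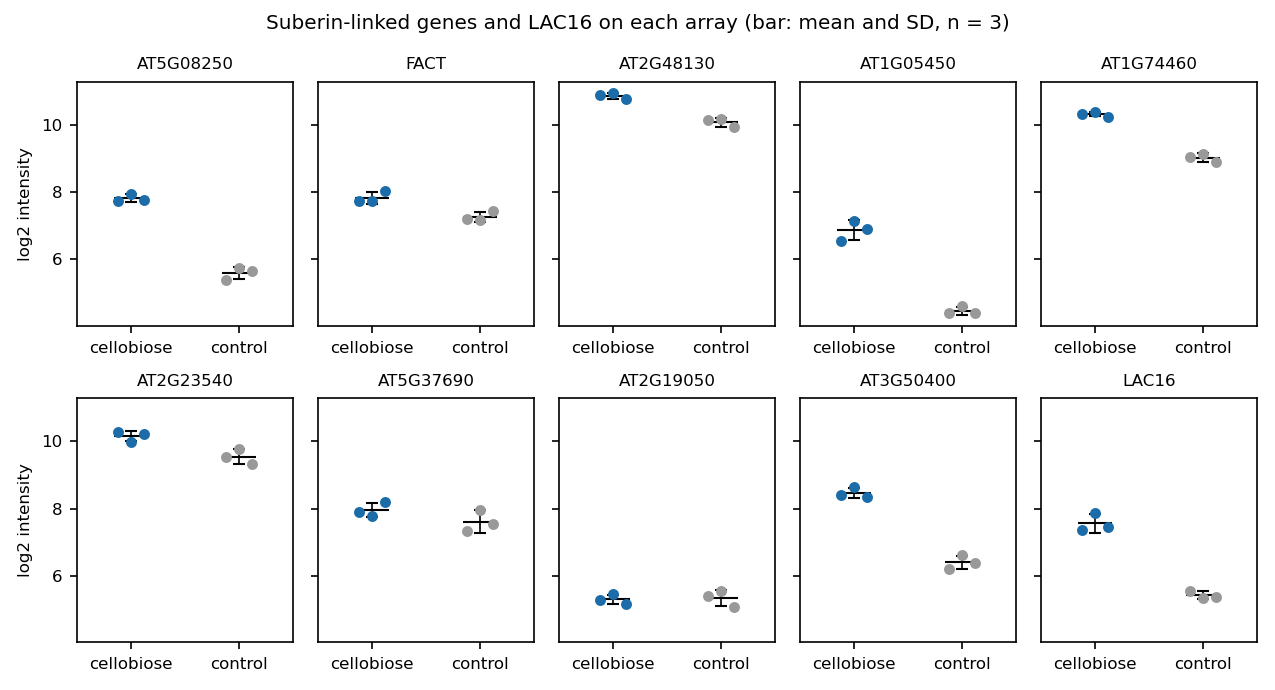
Log2 intensity of the 9 measured suberin-linked genes and of LAC16 on each of the 3 cellobiose and 3 control arrays, with bars for the mean and SD. AT5G08250 (2.22), AT3G50400 (2.06), LAC16 (2.13) and AT1G05450 (at least 1.87, its control arrays lying under log2 5) show wide gaps between the groups, while the groups of AT2G19050 and of AT5G37690 overlap.

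Lipid transfer genes outside the suberin list were also among the largest increases. AT4G22610 read 10.05, 10.37 and 10.10 after cellobiose, against 8.19, 8.35 and 8.34 in the control, a rise of 3.67-fold (1.88 ± 0.17, adjusted p = 0.00023). AT5G13900 read 8.95, 9.23 and 9.18 after cellobiose, against 7.36, 7.49 and 7.40 in the control, a rise of 3.26-fold (1.70 ± 0.17, adjusted p = 0.000581). In neither gene did the groups overlap. AT2G43390 and AT1G65500, for which no role is given here, rose with them: AT2G43390 by 3.51-fold (adjusted p = 0.000319) and AT1G65500, dim in the control at 4.73 to 4.84, by at least 4.35-fold (adjusted p = 0.000836).

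On the lignin side, LAC16 stood out. LAC16 is a laccase, one of the copper enzymes that oxidise lignin units in the wall, and the single laccase measured of 17 listed. It read 7.36, 7.87 and 7.45 on the cellobiose arrays, against 5.56, 5.34 and 5.38 on the control arrays, with no overlap and a rise of 4.39-fold (2.13 ± 0.17, adjusted p = 0.000116). The measured genes of monolignol synthesis did not pass the test: CCR2 was at 6.71, 6.34 and 6.34 after cellobiose against 5.97, 5.75 and 6.28 in the control (adjusted p = 0.331), and HCT differed by -0.10 (adjusted p = 0.576). Of the Casparian strip genes, which build the lignified band of the endodermis, 3 of 15 were measured and limma called 0. At an unadjusted limma p under 0.05 there was 1 of the 3, where 2044 of all 13355 genes were under that p. AT1G61590 differed by 0.39 (adjusted p = 0.0869), AT4G34600 by 0.18 and the receptor kinase GSO1 by 0.10.

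Class III peroxidases, secreted haem enzymes that use hydrogen peroxide to cross-link lignin and other wall phenolics, went in both directions. Of 55 measured genes of 73 listed, 8 rose and 1 fell, 16.4 percent called against 1.94 percent of all genes, and the family's median change was 0.04. In 15 of the 55 the mean was under log2 5 in both groups. AT4G36430 was the second largest increase of all named genes. It read 11.61, 12.04 and 11.71 after cellobiose, against 8.98, 8.56 and 9.86 in the control. Control replicate 3 was the highest of the control values and still lay under every cellobiose array, and the rise was 6.28-fold (2.65 ± 0.33, adjusted p = 0.00221).

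AT1G68850 read 9.56, 9.76 and 9.60 after cellobiose and 7.75, 7.59 and 7.77 in the control, a rise of 3.83-fold (adjusted p = 0.000434). AT5G14130 read 8.51, 8.42 and 8.43 after cellobiose and 7.08, 7.01 and 6.81 in the control, a rise of 2.81-fold (adjusted p = 0.000835). AT5G39580 read 8.10, 8.53 and 8.77 after cellobiose and 6.93, 6.69 and 6.48 in the control, a rise of 3.40-fold (adjusted p = 0.00108). In these 3 genes the arrays of a group lay close together and the groups far apart. AT5G64110 (2.1-fold, adjusted p = 0.00219), AT5G66390 (1.81-fold, adjusted p = 0.000213) and the very bright AT5G64120 (1.52-fold, adjusted p = 0.0028) rose by less, AT5G64120 at 12.95, 12.90 and 12.92 after cellobiose against 12.29, 12.34 and 12.33 in the control.

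The call of AT5G06730 was weaker. It read 7.29, 7.25 and 6.90 after cellobiose and 5.54, 5.20 and 6.04 in the control (2.93-fold, adjusted p = 0.0326), and was lost without any array but control replicate 3, and reached 0.144 (adjusted p) when cellobiose replicate 3 was left out. AT1G34510 fell to 8.47, 8.69 and 8.18 after cellobiose, against 9.39, 9.04 and 8.78 in the control (-0.63 ± 0.12, adjusted p = 0.0269). Leaving out control replicate 1 or 2 put the adjusted p of AT1G34510 at 0.0882 and 0.062, and leaving out cellobiose replicate 1 or 3 put it at 0.124 and 0.136, while it was 0.105 with the replicate number left out of the fit. Control replicate 3 carried values unlike the other controls in several peroxidases: AT4G08780 read 9.05, 9.09 and 8.66 after cellobiose against 7.42, 6.86 and 8.71 in the control, and AT3G03670 read 6.64, 6.64 and 6.18 against 5.08, 5.17 and 6.4 in the control. Neither passed the test (adjusted p = 0.183 and 0.24), and without control replicate 3 the number of peroxidases called higher was 13.

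**Figure D3:**
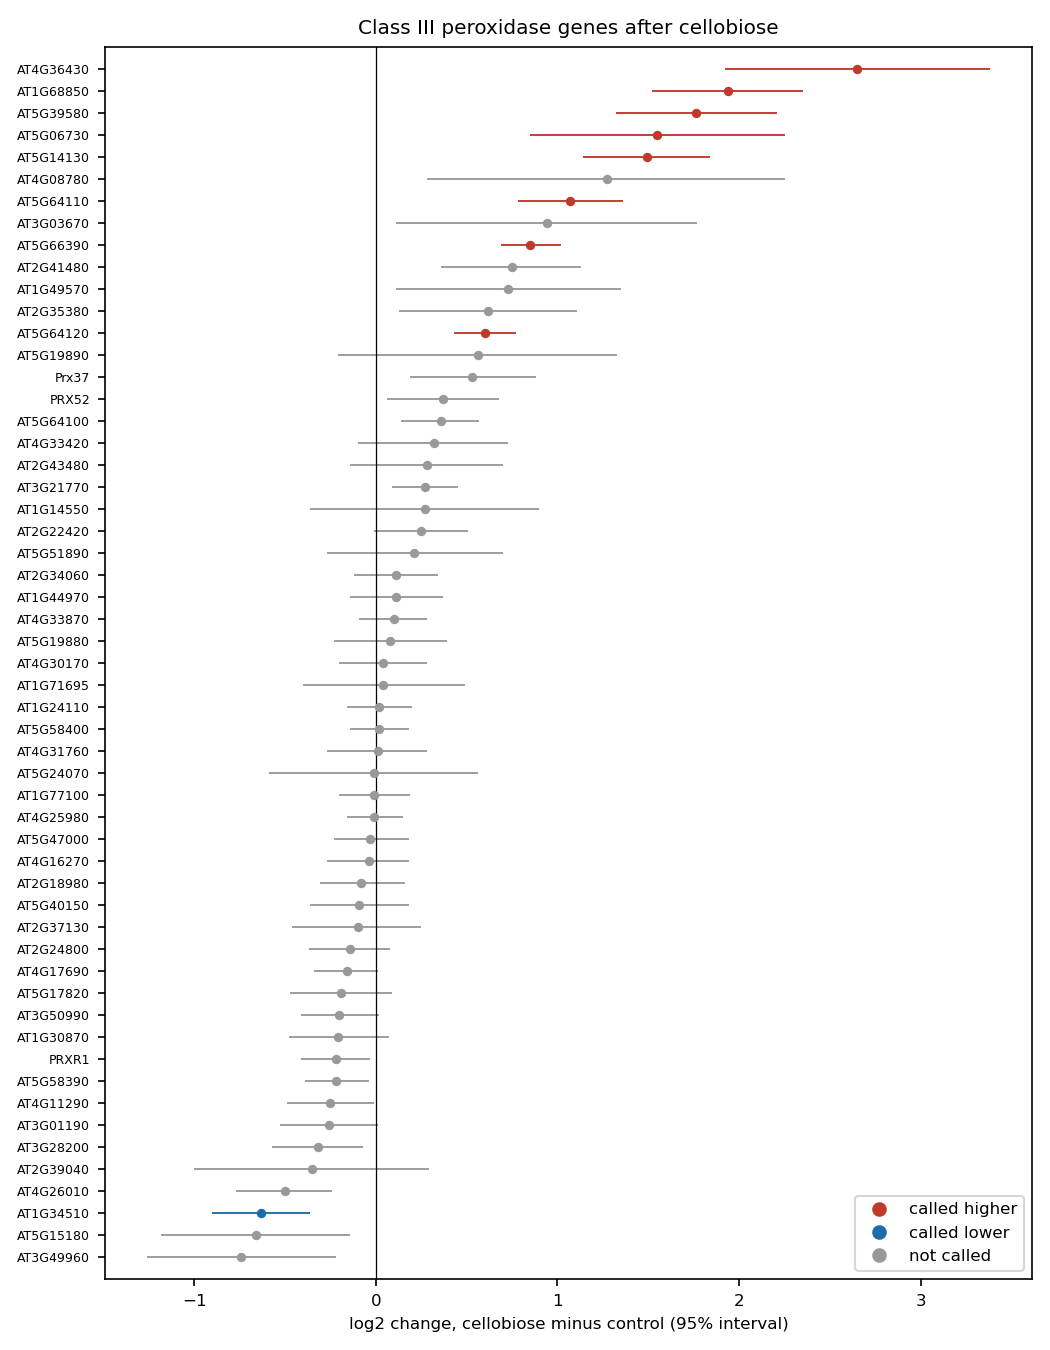
Fitted log2 change, cellobiose minus control, of the 55 measured class III peroxidase genes, with 95 percent intervals, in order of size. The 8 genes called higher are red and the gene called lower, AT1G34510, is blue; the range runs from -0.74 to 2.65.

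Several chitinases, enzymes that cut fungal chitin, were higher after cellobiose. Glycoside hydrolase family 19 had 10 measured members of 14, of which 4 rose and 0 fell, with a median of 0.40, against 1.36 percent of all genes that rose. The 5 measured members of family 18 (of 10) held 0 limma calls, ChiC being the highest at 1.15 (adjusted p = 0.0735). At an unadjusted limma p under 0.05 there were 2 of the 5, where 2044 of all 13355 genes were under that p. AT2G43620 had the largest increase of all genes. It read 9.66, 10.06 and 10.03 after cellobiose, against 5.77, 5.31 and 6.79 in the control, and the groups were separated by nearly 3 log2 units at their closest (3.95 ± 0.30, 15.5-fold, adjusted p = 8.82e-05).

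AT2G43620 is the last of 6 family members with neighbouring locus codes that begin at CHI (AT2G43570), and 3 of these 6 rose, where 1.36 percent of all genes rose. The run holds the gene with the largest increase, so its count is a description. CHI read 9.22, 9.46 and 9.68 after cellobiose, against 7.42, 7.25 and 7.78 in the control (3.90-fold, adjusted p = 8.34e-05). AT2G43610, bright in both groups, read 11.67, 11.82 and 11.79 after cellobiose, against 11.21, 11.08 and 10.89 in the control (1.62-fold, adjusted p = 0.0324). The arrays of both genes did not overlap, yet AT2G43610 lost the call without control replicate 1, 2 or 3 and without cellobiose replicate 2 or 3, with an adjusted p of up to 0.184. The neighbours in between did not pass the test: AT2G43580 differed by 0.12 and was dim, AT2G43600 differed by 0.08, and AT2G43590 by 0.52 with overlapping groups (adjusted p = 0.405). Elsewhere in the genome AT4G01700 read 11.91, 12.09 and 11.88 after cellobiose, against 10.39, 10.50 and 10.33 in the control, a rise of 2.94-fold (1.55 ± 0.10, adjusted p = 6.36e-05).

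Other secreted and defence-linked genes were among the 20 largest increases. AT5G48540, a cysteine-rich secreted protein gene, read 8.74, 8.89 and 8.81 after cellobiose and 7.46, 7.00 and 7.33 in the control (2.93-fold, adjusted p = 8.3e-05). AT3G51450, strictosidine synthase-like, was nearly the same on all cellobiose arrays, at 7.86, 7.86 and 7.84, against 6.05, 6.47 and 6.41 in the control (2.92-fold, adjusted p = 6.36e-05). AT2G15220, a basic secretory protein gene read by a probe set that can also bind other transcripts, rose 3.79-fold (adjusted p = 6.48e-05). AT3G16530, which is lectin-like, read 7.16, 7.10 and 7.15 after cellobiose and 5.28, 4.84 and 4.88 in the control (4.39-fold, adjusted p = 0.00839). Leaving out cellobiose replicate 2 or 3 put the adjusted p of AT3G16530 at 0.0503 and 0.076.

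Of the tryptophan and indole defence list 3 of 25 genes were measured and 2 rose, where 1.36 percent of all genes rose. UGT74B1, in glucosinolate synthesis, did not pass the test (0.05, adjusted p = 0.889, overlapping groups). AT1G26380, which rose, was dim in the control at 3.91, 3.93 and 4.15. Its call was lost without any array but control replicate 3, with an adjusted p of up to 0.141. AT2G04400, indole-3-glycerol phosphate synthase in tryptophan synthesis, read 9.94, 10.15 and 9.88 after cellobiose and 9.22, 9.06 and 9.20 in the control (1.78-fold, adjusted p = 0.00555). AT4G20830 encodes a berberine bridge enzyme-like oxidase that oxidises OGs. It read 10.07, 10.36 and 10.19 after cellobiose and 9.32, 9.22 and 9.41 in the control (1.85-fold, adjusted p = 0.00715), and its adjusted p was 0.0582 without cellobiose replicate 3. AT4G20860, the relative that oxidises cellobiose and longer cellodextrins, was at 10.49, 10.27 and 10.04 after cellobiose and 10.09, 10.04 and 10.32 in the control, with overlapping groups and a difference of 0.11 ± 0.12 (adjusted p = 0.68).

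In the oxidase family as a whole, a list added after values had been seen, 4 of 22 measured genes of 27 rose and 1 fell, with a median of 0.11, where 1.36 percent of all genes rose and 0.577 percent fell. The other genes that rose were AT5G44380 (1.35-fold, adjusted p = 0.0364) and 2 that were dim in the control: AT1G26380, which acts in the making of indole defence compounds, by at least 1.34-fold (adjusted p = 0.0322), and AT1G26420 by at least 1.19-fold (adjusted p = 0.00847). AT4G20820 fell by 0.57 (adjusted p = 0.036). AT5G44380 lost its call whichever of the 6 arrays was left out, with the cellobiose and control arrays fitted alone (adjusted p = 0.0909) and under median centring (adjusted p = 0.0537). The other 4 calls were each lost without at least 1 array, and the number called higher was 0 when cellobiose replicate 3 was left out, 1 when control replicate 2 was and 2 when cellobiose replicate 1 or 2 was.

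Genes of early elicitor signalling were within 0.35 log2 units of the control at 3 h. Of 6 measured genes of 20, limma called 0, and the median change was 0.28. At an unadjusted limma p under 0.05 there was 1 of the 6, where 2044 of all 13355 genes were under that p. In 4 of the 6 all cellobiose arrays lay above all control arrays, where 21.7 percent of all genes had separate groups in either direction. WRKY53, a transcription factor gene induced early by many elicitors, read 6.09, 6.03 and 6.19 after cellobiose and 5.82, 5.78 and 5.82 in the control, a small separation that did not pass the test (0.29 ± 0.16, adjusted p = 0.406). The ubiquitin ligase genes PUB22 (0.27), PUB23 (-0.03) and PUB24 (0.35) and the zinc finger gene STZ (0.34) were also not called. WRKY22, the other measured WRKY factor gene, went down by 0.34 with overlapping groups and was not called either (limma adjusted p = 0.33). Among receptors, AT1G56145, a malectin-domain receptor kinase for cello-oligomers, read 8.38, 8.14 and 8.39 after cellobiose and 7.72, 7.83 and 8.03 in the control (1.36-fold, adjusted p = 0.0401). This call was lost under quantile normalization and median centring of the arrays, with the cellobiose and control arrays fitted alone, and without control replicate 1 or 2 or cellobiose replicate 1 or 3, with an adjusted p of up to 0.187. The wall-sensing kinases FER (-0.08) and THE1 (-0.07) and the cytoplasmic kinase BIK1 (0.09) were not called. In the jasmonate, ethylene and salicylate list PDF1.2 (-0.28) and GRX480 (-0.24) were measured of 25, and limma called 0, also at an unadjusted p under 0.05.

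Of 16 measured genes of 29 for xyloglucan and pectin remodelling, 2 fell by the test and 0 rose, 12.5 percent called against 1.94 percent of all genes. The fitted difference was under 0 in 15 of the 16, with a median of -0.27, as it was in 49.7 percent of all genes. XTH19, a xyloglucan endotransglucosylase/hydrolase that cuts and rejoins wall xyloglucan, read 9.89, 9.83 and 9.65 after cellobiose and 10.64, 10.10 and 10.25 in the control (-0.54 ± 0.11, adjusted p = 0.037). ATPMEPCRB, a pectin methylesterase, read 7.82, 7.86 and 7.77 after cellobiose and 8.88, 8.33 and 8.78 in the control (-0.85 ± 0.17, adjusted p = 0.0293). The groups did not overlap in either gene. With the replicate number left out of the fit the adjusted p of XTH19 was 0.0968, and with the cellobiose and control arrays fitted alone it was 0.0528. Leaving out 1 array left from 0 to 2 of these calls: none without control replicate 1, cellobiose replicate 1 or cellobiose replicate 3.

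All 8 measured XTH genes had fitted differences under 0, with a median of -0.42, although XTH19 alone was called, and 4 of them had groups that did not overlap, where 21.7 percent of all genes separated in either direction. XTH33 stood at -0.59 (adjusted p = 0.0668) and XTH26, dim after cellobiose, at a bound of -0.80 with overlapping groups (adjusted p = 0.156). The 5 measured expansins, proteins that loosen the wall, were not called either, EXPA15 at -0.45 (adjusted p = 0.0631) and EXPA18, a root hair gene, at -0.39 (adjusted p = 0.0988) being the lowest. Of the cellulose genes, COB differed by -0.11 and the endoglucanase gene GH9C2 by -0.21, without a call. GH9B13, another endoglucanase gene, fell to 7.92, 7.96 and 7.85 after cellobiose, against 8.45, 8.48 and 8.46 in the control, 2 tight and separate groups (-0.55 ± 0.08, adjusted p = 0.00635). Its adjusted p was 0.0571 without cellobiose replicate 3.

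The decreases held several genes of chloroplasts. Of 11 measured nuclear photosynthesis genes of 52, 3 fell by the test and 0 rose, against 0.577 percent of all genes that fell. All 11 had cellobiose arrays under all control arrays, where 21.7 percent of all genes had separate groups in either direction, with a median of -1.31 and a range from -1.93 to -0.58. CaS, a thylakoid protein, read 5.29, 5.77 and 5.60 after cellobiose and 6.38, 7.30 and 7.45 in the control (-1.49 ± 0.29, adjusted p = 0.0265). LHCB4.1, a light-harvesting antenna protein, read 8.72, 8.89 and 9.14 after cellobiose and 9.80, 10.14 and 10.25 in the control (-1.15 ± 0.21, adjusted p = 0.0205). NdhS, a subunit of the chloroplast NADH dehydrogenase-like complex, read 6.02, 6.04 and 6.57 after cellobiose and 7.32, 7.24 and 7.40 in the control (-1.11 ± 0.12, adjusted p = 0.00106).

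NdhS kept its call without any single array, while CaS and LHCB4.1 lost theirs without any array but control replicate 1, with adjusted p reaching 0.134 and 0.11. The Calvin cycle gene PRK had the lowest fitted change of the list and was not called: 5.21, 6.10 and 6.73 after cellobiose against 7.48, 7.61 and 8.74 in the control (-1.93 ± 0.44, adjusted p = 0.0511). PRK had an SD of 0.77 after cellobiose and 0.69 in the control, and SBPASE of 0.63 and 0.82, so that their arrays were spread widely within both groups. Over the list the mean was 6.70, 7.22 and 7.62 on the cellobiose arrays and 8.14, 8.40 and 8.86 on the control arrays. In a fit of the cellobiose and control arrays alone all 11 were called lower. The mean was also under that of every control array after chitin (7.20, 6.10 and 6.98) and after OGs (7.76, 6.87 and 7.22), so the low level was not particular to cellobiose. These genes mark green tissue. The spike-in level and the GAPDH 3′ minus 5′ difference given above also differed between the cellobiose and control arrays. After chitin the GAPDH difference was 0.442, 0.243 and 0.323, which overlapped the control, while the spike-in mean was 5.63, 5.70 and 5.72, under every control array. After OGs the GAPDH difference was 0.134, 0.220 and 0.844 and the spike-in mean 5.64, 5.79 and 5.97, and both ranges overlapped the control. The part of green tissue, spike-in level and GAPDH difference in the decreases was not tested.

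**Figure D4:**
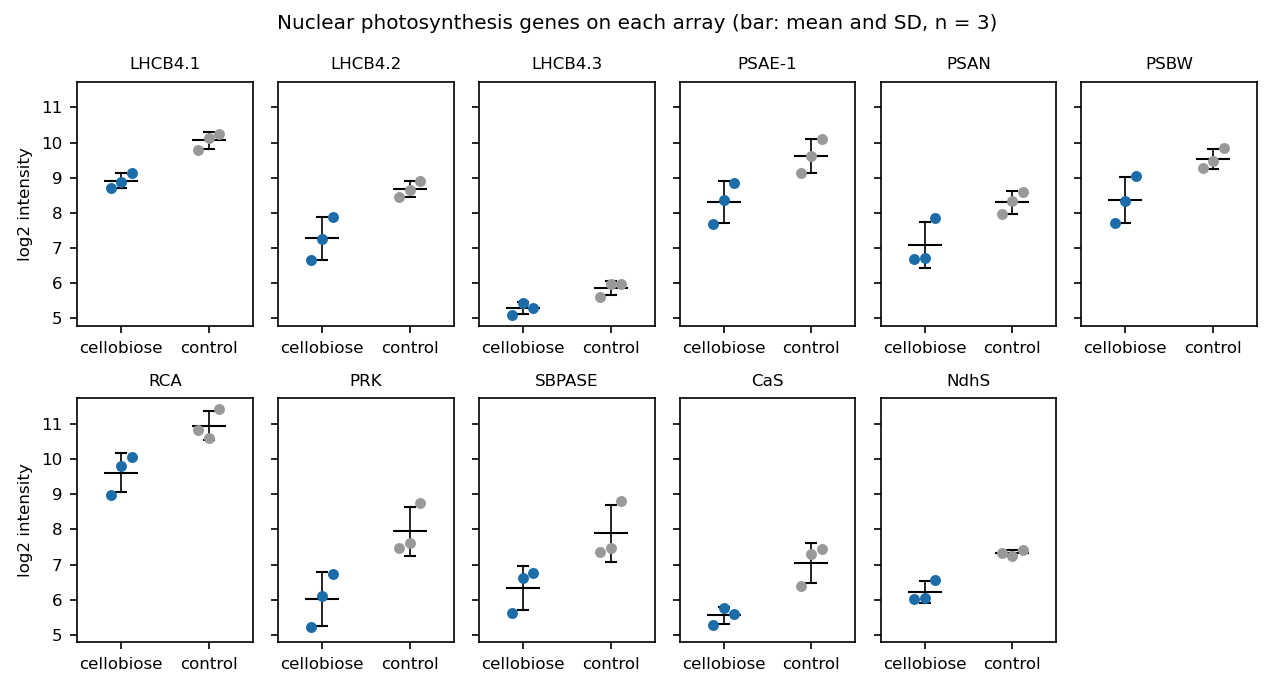
Log2 intensity of the 11 measured nuclear photosynthesis genes on each of the 3 cellobiose and 3 control arrays, with bars for the mean and SD. In all 11 genes every cellobiose array lies under every control array, and the spread within a group is wide for PRK and SBPASE.

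The remaining large decreases were of mixed kinds. AT5G38820, an amino acid transporter gene, read 6.96, 7.07 and 7.10 after cellobiose and 8.48, 8.41 and 8.06 in the control (-1.27 ± 0.18, adjusted p = 0.00462), and with NdhS it was the other decrease that kept its call without any single array. AT1G73120 had the largest fall of a named gene, at 7.67, 7.70 and 7.61 after cellobiose against 8.45, 9.56 and 10.08 in the control (-1.70 ± 0.33, adjusted p = 0.0285). The cellobiose arrays of AT1G73120 were alike and the control arrays spread over more than 1 log2 unit. Leaving out control replicate 2 or 3 put its adjusted p at 0.111 and 0.07, and leaving out cellobiose replicate 2 or 3 put it at 0.106 and 0.167.

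AT3G58060, a cation efflux family gene, read 7.22, 7.48 and 7.31 after cellobiose and 8.16, 8.04 and 8.73 in the control (-0.98, adjusted p = 0.0209). AT5G62420, an aldo-keto reductase, read 6.14, 5.93 and 5.80 after cellobiose and 7.01, 7.34 and 6.60 in the control (-1.02, adjusted p = 0.0121). UF3GT, a glycosyltransferase of anthocyanin synthesis, read 5.27, 5.55 and 5.31 after cellobiose and 5.84, 6.81 and 6.46 in the control (-0.99, adjusted p = 0.0325). None of these groups overlapped, and each of the 3 calls was lost without cellobiose replicate 3, with adjusted p of 0.136, 0.0858 and 0.178 in turn. The glycine-rich protein gene AT1G04800 (-1.25), AT1G04770 (-1.06), AT5G35660 (-0.93), the plastid ribosomal protein gene AT4G17560 (-0.92), the extensin-like AT5G06630 (-0.91, read by a probe set that can bind other transcripts) and AT5G51110 (-0.86) completed the 15 largest decreases, each losing its call without cellobiose replicate 3. AT5G35660 also lost it when the replicate number was left out of the fit (adjusted p = 0.123).

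Of the called probe sets, 182 of the 351 higher and 78 of the 165 lower have a gene of their own in the annotation used. Probe set 262325_at, without a gene of its own there, was second to AT2G43620 in size, at 10.50, 10.36 and 9.96 after cellobiose against 6.37, 6.38 and 7.27 in the control (3.60 ± 0.28, 12.1-fold, adjusted p = 9.60e-05). Probe set 253502_at, also without a gene of its own, had the largest called decrease, at 5.87, 5.67 and 5.87 after cellobiose against 7.29, 7.82 and 8.35 in the control (-2.02 ± 0.36, adjusted p = 0.0179). The groups of both probe sets were well apart. The decrease of 253502_at lost its call without control replicate 1 or 3 and without cellobiose replicate 2 or 3, with an adjusted p of up to 0.115.

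Cellobiose was then set against the other elicitors, to see which of these levels differed from those after chitin and after OGs. These comparisons use the same cellobiose arrays as the comparison with the control, so the genes named above were in part chosen for high or low values on arrays that enter all 3 comparisons, and counts of them are a description. Against chitin, 677 genes differed (5.07 percent), 318 of them higher after cellobiose (2.38 percent) and 359 lower (2.69 percent). Against OGs, 149 genes differed (1.12 percent), 86 of them higher (0.644 percent) and 63 lower (0.472 percent). The number of probe sets called was 1239 against chitin (5.45 percent) and 299 against OGs (1.31 percent), and 165 against OGs without OGs replicate 3, the array that stood apart. Against chitin it was 625 when cellobiose replicate 2, 667 when cellobiose replicate 3 and 659 when chitin replicate 2 was left out, and against OGs it lay between 153 and 171 with any array left out but OGs replicate 2. Median centring split the probe sets into 316 higher and 846 lower against chitin, where the deposited values gave 572 and 667, and into 146 and 186 against OGs, where they gave 170 and 129. Of the 20 largest increases, 9 were also higher after cellobiose than after chitin and 6 lower, and 13 were higher than after OGs and 0 lower.

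Of the 9 suberin-linked genes 5 were higher after cellobiose than after chitin and 6 were higher than after OGs, with 0 lower in either comparison, where 2.38 and 0.644 percent of all genes were higher. AT5G08250 averaged 7.81 ± 0.12 after cellobiose, 6.52 ± 0.38 after chitin and 4.88 ± 0.29 after OGs (SD, n = 3 each), a difference of 1.29 from chitin (limma adjusted p = 0.00265) and, with the OGs arrays raised to log2 5, of at least 2.77 from OGs (adjusted p = 2.54e-05). Its mean in the control was 5.59 ± 0.18. AT1G05450 was higher by 1.18 than after chitin (adjusted p = 0.000983) and by at least 1.87 than after OGs, where it was under log2 5 (adjusted p = 1.24e-05), AT3G50400 by 1.16 and 2.41, AT1G74460 by 0.89 and 2.02, and AT2G48130 by 0.59 and 1.02, all past the test. The mean of the 9 suberin-linked genes was 8.34 to 8.45 on the cellobiose arrays, 7.68 to 7.77 on the chitin arrays and 6.66 to 7.19 on the OGs arrays. On the control arrays it was 7.18 to 7.41. Every chitin array thus lay above every control array, so a level above the control was not particular to cellobiose. The OGs arrays reached only the low end of the control, so the gap to OGs is not all a rise after cellobiose. LAC16 averaged 5.43 in the control, 6.33 after chitin and under log2 5 after OGs. LAC16 was higher by 1.23 than after chitin (adjusted p = 0.00169) and by at least 2.54 than after OGs (adjusted p = 2.54e-05). AT4G26790, AT4G22610 and AT5G13900 were likewise higher than after both, with differences between 0.99 and 2.58. AT2G43390 was higher by 1.19 than after chitin and by at least 2.17 than after OGs.

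The peroxidases differed among themselves in this. AT1G68850 was higher after cellobiose by 0.94 than after chitin (limma adjusted p = 0.0147) and by 2.83 than after OGs (adjusted p = 2.54e-05), and AT5G14130 by 0.81 (adjusted p = 0.0136) and 1.73 (adjusted p = 0.000251). AT1G68850 averaged 7.70 in the control, 8.70 after chitin and 6.81 after OGs. AT5G14130 averaged 6.97 in the control, 7.64 after chitin and 6.73 after OGs. AT4G36430 differed from OGs by 2.28 (adjusted p = 0.00575) and from chitin by 0.24, with a 95 percent interval from -0.48 to 0.97 (adjusted p = 0.757). AT5G39580, in contrast, differed by -2.04 from chitin (adjusted p = 0.000157) and by -0.10 from OGs, with an interval from -0.54 to 0.34. Over the family, 3 of 55 genes were higher and 7 lower than after chitin, where 2.38 and 2.69 percent of all genes were, and 6 were higher and 0 lower than after OGs, where 0.644 and 0.472 percent were.

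Several chitinases and most of the measured early signalling genes were lower than after chitin. CHI differed from chitin by -1.86 (limma adjusted p = 3.22e-05) and AT4G01700 by -0.99 (adjusted p = 0.000169), and 5 of the 15 chitinases were lower after cellobiose than after chitin, with 0 higher, where 2.69 percent of all genes were lower and 2.38 percent higher. AT2G43620 differed from chitin by -0.97, with an interval from -1.63 to -0.30 and an adjusted p of 0.103, and was higher than after OGs by 1.60 (adjusted p = 0.0298). WRKY53 differed from chitin by -3.39 (adjusted p = 1.84e-06) and STZ by -2.00 (adjusted p = 0.000124), and 5 of the 6 early elicitor genes were lower than after chitin. The remaining gene, WRKY22, stood 0.38 above its chitin level, without a call (adjusted p = 0.246). Of the 6, 0 differed from OGs by the test, as 1.12 percent of all genes did. AT1G26380 and AT1G26420 differed from chitin by -3.90 and -3.13, both past the test. Among the 15 largest decreases 11 did not differ from chitin by the test and 15 did not differ from OGs. Of all genes only 5.07 percent differed from chitin and 1.12 percent from OGs, so a lack of calls is common to most genes. AT5G62420 stayed at least 0.96 above its chitin level, which was under log2 5 (adjusted p = 0.000772), as did AT5G38820 by 0.79 (adjusted p = 0.0267) and AT3G58060 by 0.79 (adjusted p = 0.0295), and AT5G35660 differed from it by -1.17 (adjusted p = 0.00552). Of the photosynthesis genes, 0 of 11 differed from chitin or OGs by the test, which with those shares of all genes does not set them apart.

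**Figure D5:**
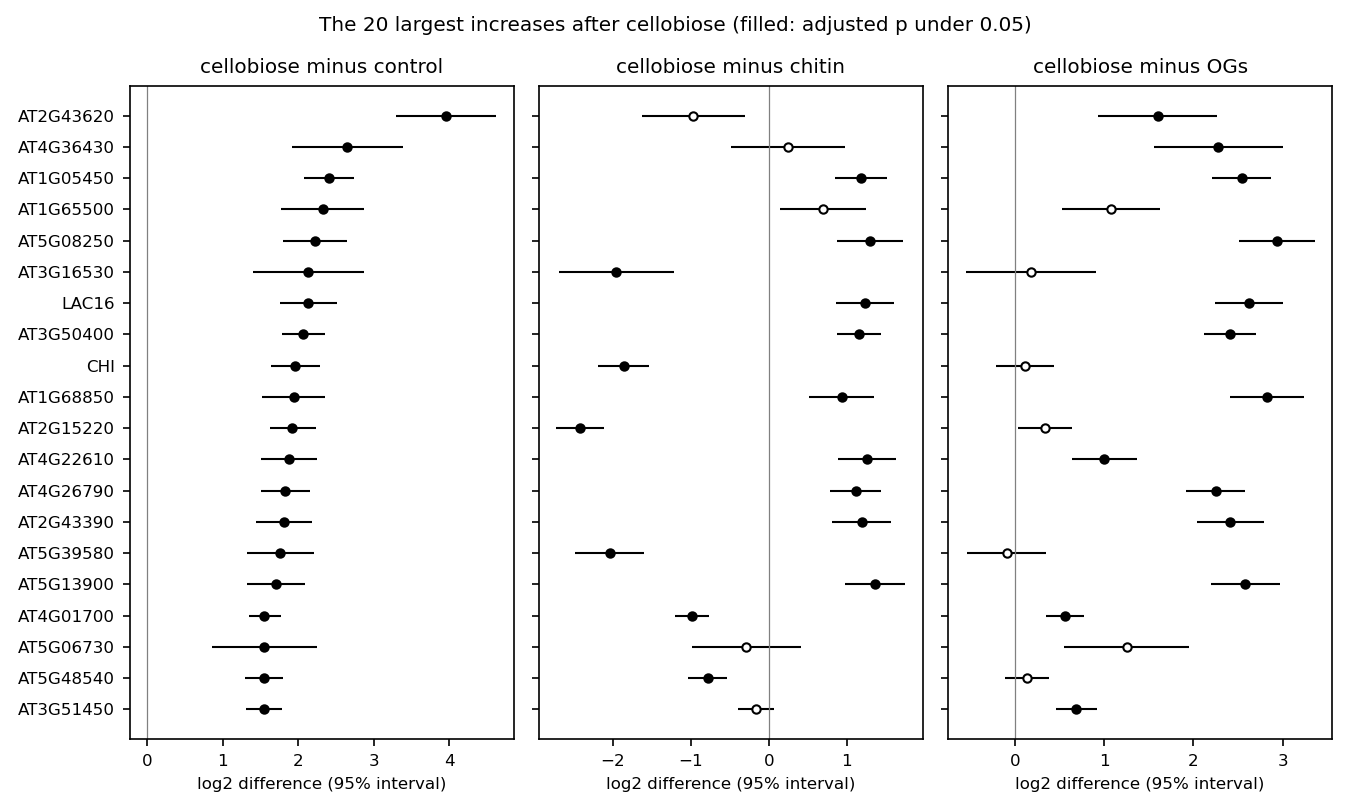
Fitted log2 differences with 95 percent intervals for the 20 largest increases, in cellobiose minus control, cellobiose minus chitin and cellobiose minus OGs, each panel with its own x axis; filled points passed the test. AT1G05450, AT5G08250, LAC16 and AT2G43390 lie under log2 5 after OGs, and AT1G05450 and AT1G65500 in the control, so those points are fitted values and not sizes. Against chitin 9 genes lie above 0 and 6 below among the filled points, and against OGs 13 lie above 0.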

How the data were processed

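The authors deposited normalized probe set intensities on a log2 scale, made with GCRMA per the series design text, and with Affymetrix Expression Console per the submitters' processing notes, and which of these made the table is not stated. Both are named with versions not given in the sources used here. Such normalization assumes that most transcripts do not change and compresses dim values. The precision is limited by 3 arrays a group.

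Of 22810 probe sets, 64 are manufacturer's controls and 22746 were tested. The probe annotation given with the series has 1 gene for 13513 of these, several for 503 and none listed for 8730; 13436 matched the RefSeq gene table, and the brightest probe set stood for each of 13355 genes. All 12 arrays were fitted with limma 3.58.1 in R 4.3.3 (lmFit, eBayes; 4 groups, replicate number as a block, 6 residual degrees of freedom), and p-values were adjusted over the 22746 probe sets by the Benjamini-Hochberg method, with calls at 0.05. The block follows the design text, which takes ratios within sample pairs. The fit was tested on simulated data with known changes in 50 probe sets of each size. It recovered 24 of 50 changes of 0.5 log2 units, and 50, 48 and 50 of those of 1, 1.5 and 2. Beside 172 changes recovered there were 11 false calls. The simulated noise was independent between arrays, without shifts shared by an array or replicate, so it cannot show how far results rest on single arrays. The p-values rest on the spread of the labelled biological replicates that remains after the replicate-number block is taken out. That spread is pooled over all 4 groups, chitin and OGs included, and moderated across probe sets by eBayes.

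Named are the 20 largest increases and 15 largest decreases among called genes that moved one way in all 3 replicate pairs and reached log2 5 in the higher group. Also named are up to 6 called members of each of 13 gene lists, with uncalled members that complete a role. The largest changes of probe sets without a gene of their own are named too. A group mean under log2 5 was raised to 5 for a lower bound of a fold change, a choice made, like 1 further list, after seeing the data. The members, lists and rule were chosen with earlier results of these data known.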

Additional observations from a re-analysis of the deposited data

How the results depend on the processing

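Against the control 516 probe sets were called, and 611 without the replicate block, of which 474 were shared. The deviations of same-numbered cellobiose and control arrays correlated at 0.198, -0.114 and -0.0859. The numbers thus gave little sign of pairing these arrays, though 3 correlations cannot settle it. The replicate pairs of the naming rule may therefore be an arbitrary matching. Fitting these 2 groups alone gave 714 (349 up, 365 down), quantile normalization 492, median centring 529 (292 up, 237 down, against 351 up and 165 down), a brightness filter at log2 5 538 and an intensity trend 608 (369 up, 239 down); 126 changed by 2-fold or more, and leaving out 1 array gave 138 to 583. Against chitin the 1239 calls (572 up, 667 down) became 1433 without the replicate block, 316 up and 846 down under median centring, and 410 up and 711 down under quantile normalization, with 269 at 2-fold or more and 625 to 1200 with 1 array left out; the 625 was without cellobiose replicate 2, and 659 were called without chitin replicate 2 and 667 without cellobiose replicate 3. Against OGs the 299 calls became 372 without the replicate block, with 115 at 2-fold or more and 153 to 227 with 1 array left out. Over the named genes and list members, most of them uncalled, 2073 repeats left the gene as it was, called or uncalled, while 111 lost the call and 43 gained it. The 2073 hold uncalled genes that stayed uncalled. They can also hold bounds with a dim group raised to log2 5, which are no test. The count therefore does not measure how stable the calls were. In 0 repeats did a called gene turn direction. The direction of genes that stayed uncalled was not compared, and it could change. AT1G71695, for example, stood at 0.04 with all arrays and at -0.29 to 0.24 with 1 array left out. Dim probe sets and the 8730 probe sets without a listed gene limit what the lists can show.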

Other observations

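Some genes outside the lists and the naming rule, picked after their values were seen, were higher after cellobiose than in the control, after chitin and after OGs, comparisons that share the cellobiose arrays. The lipid transfer protein gene AT3G22620 read 11.29, 11.57 and 11.29 after cellobiose, against 10.42, 10.49 and 10.16 in the control (1.03 ± 0.13 SE, limma adjusted p = 0.00225), and stood 0.70 above chitin and 1.41 above OGs. AT4G12500, of the same broad family, read 7.04, 6.96 and 6.93 after cellobiose, against 5.76, 5.32 and 5.71 in the control (1.38 ± 0.21, adjusted p = 0.00651, and 0.0559 without cellobiose replicate 3). AT4G36610, an alpha/beta hydrolase gene, read 10.06, 10.26 and 10.07 after cellobiose, against 8.83, 8.84 and 8.69 in the control (1.34 ± 0.09, adjusted p = 6.36e-05), and stood 0.85 above chitin and 2.14 above OGs. In all 3 genes the groups did not overlap.

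A further pair of genes was picked in the same way. The dirigent protein gene AT2G21100, of a family that steers the coupling of lignin-like phenolics, read 8.83, 8.66 and 8.78 after cellobiose, against 7.68, 7.88 and 7.65 in the control (1.02 ± 0.12, limma adjusted p = 0.00201). AT4G16640, matrix metalloprotease-like, read 6.52, 6.38 and 6.46 after cellobiose, against 5.53, 5.43 and 5.20 in the control (1.06 ± 0.14, adjusted p = 0.00377). Both stood above chitin (0.57 and 0.81) and above OGs (1.37 and 1.24) by the test.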
